A study of Mus musculus with 6 samples.

Results

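The genes described are 29 members of the cholesterol synthesis, uptake and efflux machinery, taken by symbol from the 55401 gene identifiers of a deposited count table. They were measured in mouse group 3 innate lymphoid cells (ILC3s), lymphocytes of the gut mucosa that lack antigen receptors and release interleukin 22. The labels place them in the lamina propria of the small intestine, in wild-type animals, after exposure to PEox (3 libraries) or vehicle (3 libraries). PEox is not spelled out there; in ferroptosis research it commonly stands for oxidised phosphatidylethanolamine. A protocol text speaks of pups; dose, duration, composition of the vehicle, exact age, pooling and route of exposure are not known here. All 6 libraries share the wild-type genotype. Separate animals or cultures are not stated, so the p-values reflect library-to-library spread alone, and that spread may be technical.

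The protocol text also describes a sort for EpCAM-positive, CD45-negative epithelium, against the ILC3 label, so cell type markers were read first. The 15 ILC3 markers summed to 10230 to 10410 CPM (counts per 1e+06 counts, scaled by TMM factors) in PEox and 17330 to 17760 in vehicle. Of them 9 were called lower, 1 higher and 5 were not called. The sum includes the cytokine gene Il22, which averaged 2513 CPM in PEox and 6724 CPM in vehicle. It also includes the T cell receptor gene Tcrg-C1, at 966 CPM in PEox and 1573 in vehicle. Il7r, Il23r, Il1r1, Rora and Ahr were not called, and Kit was higher at 418 CPM in PEox and 223 in vehicle. Epcam averaged 31.95 ± 3.70 CPM in PEox and 52.15 ± 3.53 in vehicle (SD, n = 3 each). Of the 19 epithelial genes listed, 3 (Cdx2, Alpi and Apoa4) had no count in any library, and Vil1 averaged 0.143 CPM in PEox and 0.132 in vehicle. Krt8, Krt18 and Lgals4 were present in every library. They averaged 15.5, 13.6 and 11.8 CPM in PEox and 31.1, 19.5 and 8.33 CPM in vehicle. Total counts were 56252806 to 57532484 in PEox and 59524577 to 66849230 in vehicle libraries, and the 29 genes together received 95966 to 102256 of them in PEox and 105513 to 116885 in vehicle libraries. Over all tested genes 18.3% were called higher and 18.8% lower, and the called counts of each marker list stand against these shares. Marker sums of several other cell types differed between the groups. B and plasma cell genes summed to 197 to 201 CPM in PEox and 721 to 729 in vehicle, with 9 of 9 called lower. Macrophage and dendritic cell genes, of a cell type that handles much cholesterol, summed to 130 to 157 CPM in PEox and 262 to 281 in vehicle (6 of 13 called lower, none higher). T cell genes summed to 43.3 to 56.1 CPM in PEox and 106 to 118 in vehicle (5 of 8 lower, 1 higher), mast cell and basophil genes to 23.2 to 32.6 CPM in PEox and 151 to 163 in vehicle (4 of 9 lower), and epithelial genes to 75.4 to 77.5 CPM in PEox and 107 to 121 in vehicle (3 of 9 tested lower). Stroma and endothelium genes summed to 372 to 397 CPM in PEox and 248 to 270 in vehicle (4 of 9 tested higher, 1 lower), and erythroid genes, mostly haemoglobin, to 5121 to 5808 CPM in PEox and 2755 to 2802 in vehicle (5 of 8 higher). The 10 genes of cell division, among them Mki67, summed to 205 to 214 CPM in PEox and 759 to 801 in vehicle, all 10 being called lower. The part of these cells and of division in the cholesterol results was not tested. In such bulk libraries fewer cells of a type and less RNA per cell cannot be told apart.

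Cells build cholesterol from acetyl-CoA through mevalonate, isoprenoid diphosphates, squalene and lanosterol. When sterols in the endoplasmic reticulum fall, the escort protein SCAP carries the transcription factors SREBP1 and SREBP2 to the Golgi for cleavage, and the released factors switch on the synthesis enzymes and the uptake of lipoproteins; INSIG proteins hold SCAP back when sterols are plentiful. Excess cholesterol is esterified or exported by ABC transporters under the oxysterol-sensing LXR receptors. In lymphocytes, sterol synthesis supports membrane growth and division.

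PEox libraries showed neither a uniform rise nor a uniform fall of the 29 genes. All 29 passed the low-count filter. By edgeR's quasi-likelihood test with Benjamini-Hochberg adjustment over 18253 genes and a threshold of 0.05, 13 were called, 4 higher and 9 lower in PEox, where 37.1% of all tested genes were called (18.3% higher, 18.8% lower). The called share of the 29, 44.8%, stands near that background. With a stricter filter of at least 5 CPM in 3 libraries, 60.6% of 10743 genes were called. Of the 28 members it kept, 4 were then called higher and 12 lower. For 15 of the 29 the CPM ranges of the groups were apart, against 50.6% of all tested genes. The median log2 fold change was -0.01, and 0.00 over all tested genes. Higher were Hmgcs1, Insig2, Scap and Soat1; lower were Mvk, Pmvk, Mvd, Fdps, Fdft1, Hsd17b7, Ebp, Srebf2 and Stard4. Of the 13 calls, 9 held with the same sign in all 14 alternative analyses, and the other 4 were those of Mvk, Pmvk, Hsd17b7 and Ebp.

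**Figure D1:**
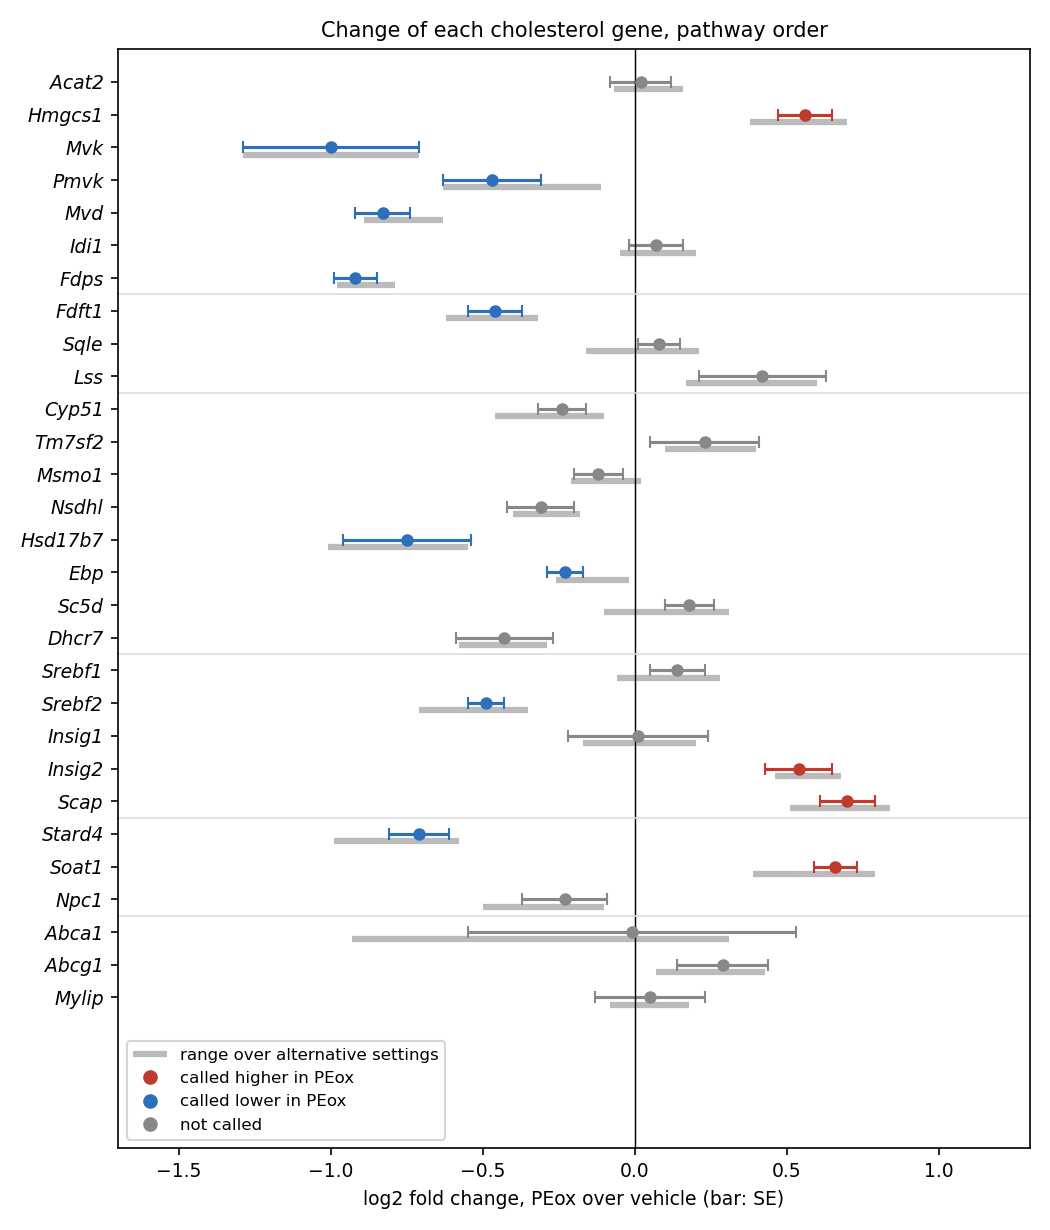
Fitted log2 fold change of PEox over vehicle for each of the 29 genes, in pathway order from top to bottom, with thin lines between role groups. Points and bars are the estimate and its SE, coloured by the edgeR call, and grey bars give the range over the alternative analyses. Mvk (-1.0) and Fdps (-0.92) lie farthest to the left and Scap (0.70) and Soat1 (0.66) farthest to the right.

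Of the 18 synthesis enzymes 7 were called lower, 1 higher and 10 were not called, with a median log2 fold change of -0.23. Over all tested genes 18.3% were called higher and 18.8% lower, and the role group counts below stand against these shares. Their summed level was 928, 962 and 974 CPM in PEox libraries 1 to 3 and 1115, 1123 and 1097 CPM in vehicle libraries 1 to 3. The groups did not overlap in this sum, as for 50.6% of single tested genes. The difference was not spread evenly. Fdps averaged 86.8 CPM in PEox and 164.7 in vehicle, and Mvd 41.2 and 73.4. The squalene to lanosterol enzymes summed to 184 CPM in PEox and 188 in vehicle, and the lanosterol to cholesterol enzymes to 418 and 467. As a share of raw counts, without scaling factors, the enzymes held 0.0971% to 0.102% in PEox and 0.105% to 0.107% in vehicle. Scaling by library size, which moved the median of all tested genes to 0.14, put the enzymes' median at -0.10 with 3 called higher and 5 lower.

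In the early mevalonate steps 4 of 7 enzymes were lower, 1 was higher and 2 did not pass; a difference from later steps was not tested. Hmgcs1, the HMG-CoA synthase that feeds the pathway, had 59.7, 62.4 and 67.8 CPM in PEox libraries 1 to 3, against 40.1, 46.6 and 42.0 CPM in vehicle libraries 1 to 3. Every PEox library lay above every vehicle library, and the log2 difference was 0.56 ± 0.09 (SE; edgeR adjusted p = 0.00152).

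The kinases and decarboxylase that follow were lower. Mvk, mevalonate kinase, stood at 9.84, 12.5 and 5.17 CPM in PEox libraries 1 to 3 and at 17.5, 16.98 and 20.4 CPM in vehicle libraries 1 to 3 (log2 fold change -1.0 ± 0.29, SE; edgeR adjusted p = 0.0267). PEox library 3 was the lowest, and all PEox values lay under the vehicle range. Leaving out PEox library 1 or vehicle library 1, 2 or 3 ended the Mvk call, at edgeR adjusted p = 0.0565, 0.072, 0.0678 and 0.0958 (range over all alternatives 0.00214 to 0.0958).

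Pmvk, phosphomevalonate kinase, was measured at 16.6, 21.0 and 25.4 CPM in PEox and 29.4, 28.7 and 29.4 CPM in vehicle (log2 fold change -0.47 ± 0.16, SE; edgeR adjusted p = 0.0437). The vehicle libraries were nearly alike, whereas the PEox libraries spread widely beneath them. This call is the least stable of the 13: the fold change was -0.11 after length and GC correction, which takes out each library's trend of counts with transcript length and GC content (adjusted p = 0.698), and the call was also lost with library size scaling (0.134), without a low-count filter (0.0545) and when any library other than PEox library 3 was left out (0.0744 to 0.122).

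Mvd, the decarboxylase that yields isopentenyl diphosphate, had 44.4, 42.2 and 37.0 CPM in PEox and 73.9, 76.4 and 69.9 CPM in vehicle. Both groups were tight and far apart, and the difference was -0.83 ± 0.09 in log2 units (SE; edgeR adjusted p = 0.000192). Fdps, which joins isoprenoid units into farnesyl diphosphate, fell to 84.6, 82.7 and 93.2 CPM in PEox libraries 1 to 3, against 157, 166 and 171 CPM in vehicle libraries 1 to 3 (log2 fold change -0.92 ± 0.07, SE; edgeR adjusted p = 2.54e-05). Per kilobase of transcript Fdps had the highest level of the 29 genes in both groups, 62.8 CPM per kilobase in PEox and 119 in vehicle. In the GENCODE annotation 26.7% of its exon bases are shared with the same-strand gene model Gm43738, which has 0 counts in the 6 libraries against 45664 for Fdps, so its count is uncertain where the counting left out shared reads.

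The 2 enzymes of this stretch that did not pass were Acat2 and Idi1. Acat2, the thiolase of the first condensation, averaged 67.8 ± 2.35 CPM in PEox and 66.7 ± 8.23 in vehicle (SD, n = 3 each; log2 fold change 0.02, edgeR adjusted p = 0.886). Its close mouse paralogue Acat3 could share reads with it, so its level is uncertain. Idi1, the isomerase between Mvd and Fdps, averaged 63.8 ± 3.997 CPM in PEox and 60.9 ± 5.32 in vehicle (SD, n = 3 each; log2 fold change 0.07, edgeR adjusted p = 0.625). The signs of both turned in some alternatives, within -0.07 to 0.16 for Acat2 and -0.05 to 0.20 for Idi1.

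**Figure D2:**
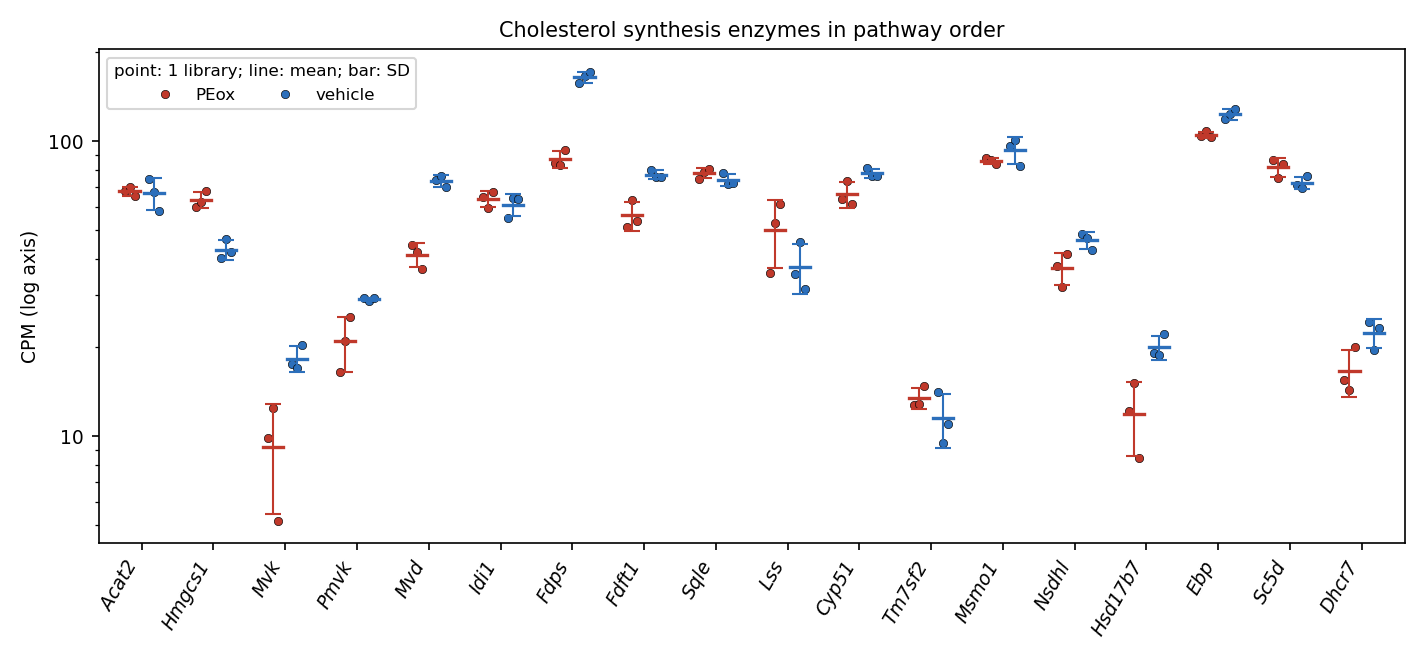
CPM of the 18 synthesis enzymes in each library on a log axis, in pathway order from left to right. Points are libraries, horizontal lines are means and bars are SD (n = 3 per group). Hmgcs1 stands higher in PEox, while Mvk, Pmvk, Mvd and Fdps stand lower with no overlap between the groups.

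From squalene to lanosterol, 1 of 3 enzymes was lower. Fdft1, squalene synthase, which commits farnesyl diphosphate to sterols, had 51.1, 63.2 and 53.7 CPM in PEox and 80.1, 75.4 and 75.6 CPM in vehicle (log2 fold change -0.46 ± 0.09, SE; edgeR adjusted p = 0.00476). The groups did not overlap. In the GENCODE annotation 774 bases, or 18.3% of the exon bases of Fdft1, overlap the opposite-strand gene Ctsb, which received 683975 counts over the 6 libraries against 24117 for Fdft1; since the strand setting of the counting is not given in the sources used here, reads of Ctsb in the Fdft1 count cannot be told apart. Smaller overlaps with expressed opposite-strand genes exist for Npc1 (4.52% of exon bases, Rmc1), Cyp51 (3.76%, Akap9) and Srebf1 (1.93%, Rai1), and Scap (13.2%, 5830462I19Rik) and Hmgcs1 (12.1%, Gm48342) overlap opposite-strand models with 414 and 21 counts.

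Sqle, squalene epoxidase, an oxygen-requiring step, had 74.4, 78.6 and 80.5 CPM in PEox and 77.8, 71.4 and 72.2 CPM in vehicle. These ranges overlap, and the log2 difference of 0.08 ± 0.07 did not pass (SE; edgeR adjusted p = 0.442). It was -0.16 after length and GC correction and was called higher at 0.21 with library size scaling (adjusted p = 0.0373; range over the alternatives 0.0373 to 0.707). Lss, lanosterol synthase, averaged 50.03 ± 13.0 CPM in PEox and 37.5 ± 7.17 in vehicle (SD, n = 3 each; log2 fold change 0.42, edgeR adjusted p = 0.164). PEox library 1 lay among the vehicle values for Lss at 35.8 CPM, and without it the fold change was 0.60 (adjusted p = 0.0257; range over the alternatives 0.0257 to 0.587). Without PEox library 3 it was 0.24, and after length and GC correction 0.17.

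Between lanosterol and cholesterol, 2 of 8 enzymes were lower and none higher. Hsd17b7, a ketosteroid reductase that acts with Msmo1 and Nsdhl in removing sterol methyl groups, had 12.2, 15.1 and 8.41 CPM in PEox and 19.2, 18.8 and 22.2 CPM in vehicle (log2 fold change -0.75 ± 0.21, SE; edgeR adjusted p = 0.0233). PEox library 3 was again the lowest. The call was lost without PEox library 1 (adjusted p = 0.0543) or vehicle library 1 (0.0639), 2 (0.0599) or 3 (0.0911), within a range over all alternatives of 0.00331 to 0.0911.

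Ebp, the sterol isomerase, was the most abundant of these 8 per kilobase, at 60.3 CPM per kilobase in PEox and 70.8 in vehicle. It had 104, 108 and 103 CPM in PEox and 119, 123 and 129 CPM in vehicle. The separation was small but clear of overlap, and the difference was -0.23 ± 0.06 in log2 units (SE; edgeR adjusted p = 0.0128). After length and GC correction it was -0.02 (adjusted p = 0.882), with library size scaling -0.10 (0.237), and without vehicle library 2 the adjusted p was 0.0515 (range over the alternatives 0.00246 to 0.882).

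Cyp51, the lanosterol demethylase, and Nsdhl, a sterol dehydrogenase, had lower values in every PEox library than in any vehicle library without passing. Cyp51 averaged 66.1 ± 6.49 CPM in PEox and 77.8 ± 3.02 in vehicle (SD, n = 3 each; log2 fold change -0.24, edgeR adjusted p = 0.0613), and Nsdhl 37.2 ± 4.71 CPM in PEox and 46.2 ± 3.02 in vehicle (SD, n = 3 each; log2 fold change -0.31, edgeR adjusted p = 0.0615). Both were called lower by DESeq2 (adjusted p = 0.0441 for Cyp51 and 0.0318 for Nsdhl) and by limma-voom (0.0479 and 0.0482); over all alternatives the adjusted p ran from 0.00525 to 0.411 for Cyp51 and from 0.0258 to 0.275 for Nsdhl.

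Dhcr7, the reductase of the last step, averaged 16.6 ± 3.01 CPM in PEox and 22.4 ± 2.52 in vehicle (SD, n = 3 each; log2 fold change -0.43, edgeR adjusted p = 0.0705), and DESeq2 called it lower (adjusted p = 0.0421; range over the alternatives 0.0178 to 0.224). The methylsterol oxidase gene Msmo1 had a log2 fold change of -0.12, the sterol reductase gene Tm7sf2 of 0.23 and the desaturase gene Sc5d of 0.18, and none of them passed (edgeR adjusted p = 0.324, 0.384 and 0.119). Sc5d was called higher at 0.31 with library size scaling (adjusted p = 0.0138; range over the alternatives 0.0138 to 0.375) and lay at -0.10 after length and GC correction. Tm7sf2 shares 532 exon bases, 12.1% of its own, with the same-strand gene Vps51, so its count is uncertain.

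Promoters of the enzymes are shown because SREBPs act at sterol regulatory elements together with NF-Y, the factor that binds CCAAT boxes, and because enzymes called higher, lower and not called can be set side by side. RefSeq windows on GRCm38.p6 covered 23 of the 29 genes, 15 of them enzymes, and the 250 bases before each start were searched on both strands. CCAAT was found for 14 of 15 enzymes (93.3%), for 6 of 8 other members (75%) and for 37.5% of 27025 genes in the table. It occurred for the 1 enzyme called higher, for 5 of 5 called lower and for 8 of 9 not called, so its presence did not separate the enzymes that had a window. Of the 7 enzymes called lower, Fdps and Fdft1 had no window. Of those with one, Mvk, Pmvk, Hsd17b7 and Ebp lost their call in some alternative analyses, and Mvd alone kept it in all. For the sterol regulatory element only the strict spelling TCACNCCAC was searched, so variant elements and those outside the 250 bases were not seen. This spelling was found for Hmgcs1 alone among the 23 genes and for 1.22% of all genes. The palindromic E-box CACGTG was found for 3 of the 15 enzymes (20%) and for 6.86% of all genes. DR4, a strict form of the LXR element made of the direct repeat of AGGTCA with 4 bases between, was found for 0 of the 23 genes and for 0.0148% of all. These motifs do not overlap each other in the windows shown. A match is a description of the letters, not a site shown to be bound.

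The windows printed are those of Hmgcs1 (called higher; chr13:119690101-119690350, + strand), Mvk (called lower; chr5:114444019-114444268, + strand), Mvd (called lower; chr8:122443423-122443672, - strand), Hsd17b7 (called lower; chr1:169969206-169969455, - strand) and Idi1 (not called; chr13:8885356-8885605, + strand), each 5′ to 3′ in the direction of the gene. Capitals mark CCAAT on either strand (ATTGG on the reverse) and, in Hmgcs1, the sterol regulatory element. Hmgcs1 holds 3 CCAAT boxes and the element, which lies at bases -137 to -129 from the start; Mvk holds 5 CCAAT boxes, Mvd 2, Hsd17b7 3 and Idi1 2.
Hmgcs1: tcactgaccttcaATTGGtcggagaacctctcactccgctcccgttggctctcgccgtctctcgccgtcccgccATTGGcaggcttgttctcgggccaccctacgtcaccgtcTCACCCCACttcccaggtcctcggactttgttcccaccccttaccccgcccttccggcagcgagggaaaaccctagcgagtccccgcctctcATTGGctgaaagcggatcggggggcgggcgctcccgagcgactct
Mvk: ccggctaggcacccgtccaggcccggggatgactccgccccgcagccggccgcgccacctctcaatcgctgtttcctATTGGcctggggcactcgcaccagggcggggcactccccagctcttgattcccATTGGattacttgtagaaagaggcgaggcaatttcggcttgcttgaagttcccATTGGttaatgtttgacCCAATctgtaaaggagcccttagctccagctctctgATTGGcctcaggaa
Mvd: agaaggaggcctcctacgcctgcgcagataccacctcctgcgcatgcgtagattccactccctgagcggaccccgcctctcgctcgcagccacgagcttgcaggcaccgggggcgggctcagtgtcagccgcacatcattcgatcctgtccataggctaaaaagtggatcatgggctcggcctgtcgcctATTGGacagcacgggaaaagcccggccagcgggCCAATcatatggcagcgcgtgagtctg
Hsd17b7: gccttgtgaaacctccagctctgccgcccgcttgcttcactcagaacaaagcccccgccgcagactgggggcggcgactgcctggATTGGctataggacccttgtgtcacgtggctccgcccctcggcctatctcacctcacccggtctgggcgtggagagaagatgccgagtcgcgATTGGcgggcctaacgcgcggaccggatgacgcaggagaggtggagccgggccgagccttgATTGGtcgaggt
Idi1: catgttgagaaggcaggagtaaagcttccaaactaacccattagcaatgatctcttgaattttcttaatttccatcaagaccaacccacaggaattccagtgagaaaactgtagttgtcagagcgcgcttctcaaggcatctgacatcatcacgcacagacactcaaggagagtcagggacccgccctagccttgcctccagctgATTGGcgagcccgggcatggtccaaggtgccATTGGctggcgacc

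Regulators of the pathway went both ways, with 2 of 5 higher, 1 lower and 2 not called. Srebf2, which encodes SREBP2, the main activator of the synthesis enzymes, fell to 282, 264 and 242 CPM in PEox libraries 1 to 3, against 377, 373 and 356 CPM in vehicle libraries 1 to 3. The lowest vehicle library lay well above the highest PEox library, and the difference was -0.49 ± 0.06 in log2 units (SE; edgeR adjusted p = 0.000434). It had the highest level per kilobase of the 11 members that are not enzymes, 51.7 CPM per kilobase in PEox and 72.6 in vehicle. Srebf1, whose product SREBP1 also serves fatty acid synthesis, averaged 87.2 ± 9.24 CPM in PEox and 79.1 ± 3.59 in vehicle (SD, n = 3 each; log2 fold change 0.14, edgeR adjusted p = 0.260). It was called higher with library size scaling (0.28, adjusted p = 0.0372; range over the alternatives 0.0372 to 0.646).

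Scap, the escort of both factors, had 88.9, 76.9 and 83.8 CPM in PEox and 47.3, 54.4 and 51.5 CPM in vehicle. All PEox libraries stood above all vehicle libraries, and the difference was 0.70 ± 0.09 in log2 units (SE; edgeR adjusted p = 0.000356). Insig2, which retains SCAP in the endoplasmic reticulum, had 39.4, 43.7 and 44.2 CPM in PEox and 30.8, 25.8 and 31.0 CPM in vehicle (log2 fold change 0.54 ± 0.11, SE; edgeR adjusted p = 0.00442). Its relative Insig1, itself a classic SREBP target, was low and did not pass, at 8.65 ± 1.26 CPM in PEox and 8.58 ± 2.23 in vehicle (SD, n = 3 each; log2 fold change 0.01, edgeR adjusted p = 0.979), with values of -0.17 to 0.20 over the alternatives.

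**Figure D3:**
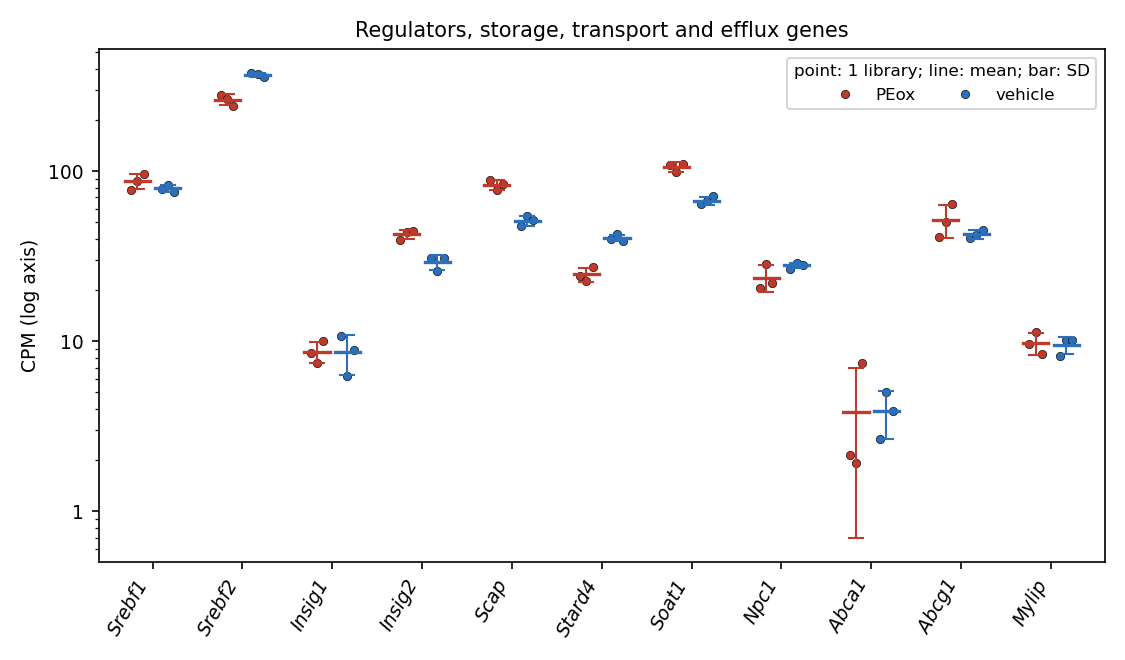
CPM of the 11 regulator, storage, transport and efflux genes in each library on a log axis. Points are libraries, horizontal lines are means and bars are SD (n = 3 per group). Scap, Insig2 and Soat1 stand higher and Srebf2 and Stard4 lower in PEox with no overlap, and Abca1 is wide in PEox because library 3 lies at 7.49 CPM.

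Of the 3 genes of storage and transport, 1 was higher, 1 lower and 1 was not called. Soat1, the enzyme that esterifies cholesterol for storage in lipid droplets, rose to 109, 98.2 and 110.1 CPM in PEox libraries 1 to 3, against 63.7, 66.3 and 71.1 CPM in vehicle libraries 1 to 3 (log2 fold change 0.66 ± 0.07, SE; edgeR adjusted p = 0.000248). With the length and GC trend removed the fold change was 0.39, and the call remained. Stard4, a soluble carrier of cholesterol between membranes and an SREBP2 target, had 24.2, 22.7 and 27.2 CPM in PEox and 39.9, 42.6 and 38.9 CPM in vehicle (log2 fold change -0.71 ± 0.10, SE; edgeR adjusted p = 0.000857). Npc1, which exports cholesterol from lysosomes, averaged 23.7 ± 4.29 CPM in PEox and 27.9 ± 1.09 in vehicle and did not pass (SD, n = 3 each; log2 fold change -0.23, edgeR adjusted p = 0.242). PEox library 2 lay within the vehicle range for Npc1, and without it the gene was called lower at -0.40 (adjusted p = 0.028). With the length and GC trend removed it was called lower too, at -0.50 (adjusted p = 0.0316; range over the alternatives 0.028 to 0.643).

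None of the 3 genes of efflux and receptor turnover was called by edgeR, also at an unadjusted p under 0.05, and DESeq2 and limma-voom called 0 as well. Abcg1, an exporter of sterols to lipoprotein particles and an LXR target, had 41.0, 50.5 and 64.2 CPM in PEox and 40.4, 41.9 and 45.0 CPM in vehicle. The groups overlap because PEox library 1 lay among the vehicle values, and the log2 difference was 0.29 ± 0.15 (SE; edgeR adjusted p = 0.187). Without PEox library 1 Abcg1 was called higher at 0.43 (adjusted p = 0.0288; range over the alternatives 0.0288 to 0.771), while it lay at 0.11 without PEox library 3 and at 0.07 after length and GC correction. Abca1, the exporter that loads apolipoprotein A-I, was scarce, at 2.14, 1.91 and 7.49 CPM in PEox and 2.66, 5.06 and 3.91 CPM in vehicle (log2 fold change -0.01 ± 0.54, SE; edgeR adjusted p = 0.991). Its value hangs on PEox library 3: the fold change was -0.93 without it and 0.31 without PEox library 2. Mylip, a ubiquitin ligase of lipoprotein receptor turnover and an LXR target, averaged 9.78 ± 1.44 CPM in PEox and 9.48 ± 1.10 in vehicle (SD, n = 3 each; log2 fold change 0.05, edgeR adjusted p = 0.877).

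Other genes of the pathway were read from 5 lists, whose counts stand against 18.3% higher and 18.8% lower over all tested genes. These shares include many genes of low count. With the stricter filter of at least 5 CPM in 3 libraries, 3322 of 10743 genes were called higher and 3185 lower. Among 15 tested sterol and isoprenoid enzymes outside the 29, 4 were higher and 4 lower (median 0.10; 6 and 2 with library size scaling). Pdss1 and Coq2, which use isoprenoid diphosphates to make ubiquinone, were lower at log2 fold changes of -0.98 and -0.52 (edgeR adjusted p = 0.00233 and 0.00231), and Coq2 was at -0.29 after length and GC correction (adjusted p = 0.0451). The mitochondrial thiolase gene Acat1 was lower at -0.28 (edgeR adjusted p = 0.00661), at -0.14 without a call with library size scaling (adjusted p = 0.0989) and at -0.44 after length and GC correction (0.000525).

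Of 14 genes that process SREBPs or degrade sterol-regulated proteins, 7 were called higher and 1 lower, where 18.3% and 18.8% of all tested genes were (median 0.35). After length and GC correction 6 were higher and 2 lower (median 0.23). With the stricter filter 8 of 13 were higher and 1 lower, where 60.6% of all genes kept were called in either direction. Mbtps1, the Golgi protease that makes the first SREBP cut, had 94.4, 94.6 and 84.2 CPM in PEox and 40.0, 52.6 and 58.1 CPM in vehicle (log2 fold change 0.86 ± 0.13, SE; edgeR adjusted p = 0.00129). Erlin2, which acts in the degradation of sterol-regulated proteins of the endoplasmic reticulum, was higher at 0.62 (0.36 after length and GC correction), while Aup1, which recruits a ubiquitin-conjugating enzyme for the same route, was lower at -0.38 (-0.17 after it and -0.24 with library size scaling; edgeR adjusted p = 0.00135 for Erlin2 and 0.000799 for Aup1 without that correction).

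Uptake and intracellular transport genes had 10 of 23 called higher and 2 lower, again beside 18.3% higher and 18.8% lower of all tested genes (median 0.32). After length and GC correction 7 were higher and 3 lower (median 0.12). With the stricter filter 10 of 21 were higher and 3 lower, where 60.6% of all genes kept were called in either direction. Lrp8, a lipoprotein receptor, had 47.8, 55.0 and 61.8 CPM in PEox and 25.7, 22.6 and 20.1 CPM in vehicle (log2 fold change 1.27 ± 0.13, SE; edgeR adjusted p = 0.000158). The oxysterol-binding transporters Osbp and Osbpl9 were higher at 1.03 and 0.81 (edgeR adjusted p = 0.000306 and 0.000344). Tspo, an outer mitochondrial membrane protein that binds cholesterol, was lower at -0.44 (edgeR adjusted p = 5.8e-05) but lay at 0.01 after length and GC correction (adjusted p = 0.816).

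Among LXR receptors, LXR targets and oxysterol genes 7 of 22 were higher and 4 lower (median -0.03, and 0.11 with library size scaling). Nr1h2, which encodes LXRβ, had 235, 195 and 225 CPM in PEox and 128, 118 and 118 CPM in vehicle (log2 fold change 0.85 ± 0.08, SE; edgeR adjusted p = 7.83e-05). Nr1h3, which encodes LXRα, was scarce, at 1.15 ± 0.63 CPM in PEox and 1.44 ± 0.18 in vehicle (SD, n = 3 each; log2 fold change -0.32, edgeR adjusted p = 0.665). Apoe, a lipoprotein component that macrophages make in quantity, was lower at 40.2 ± 2.72 CPM in PEox and 129 ± 1.19 in vehicle (SD, n = 3 each; log2 fold change -1.68, edgeR adjusted p = 2e-06). Of the 13 macrophage and dendritic cell markers, 6 were called lower in the same libraries and none higher. The 7 not called included Csf1r (-0.14) and Adgre1 (-0.15). The part of these cells in the Apoe difference was not tested. Cyp11a1, which opens steroid synthesis from cholesterol, was lower at -1.26 (edgeR adjusted p = 0.00045), and Gpr183, the oxysterol receptor that guides ILC3s to lymphoid tissue, was higher at 0.34 (edgeR adjusted p = 0.000519).

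**Figure D4:**
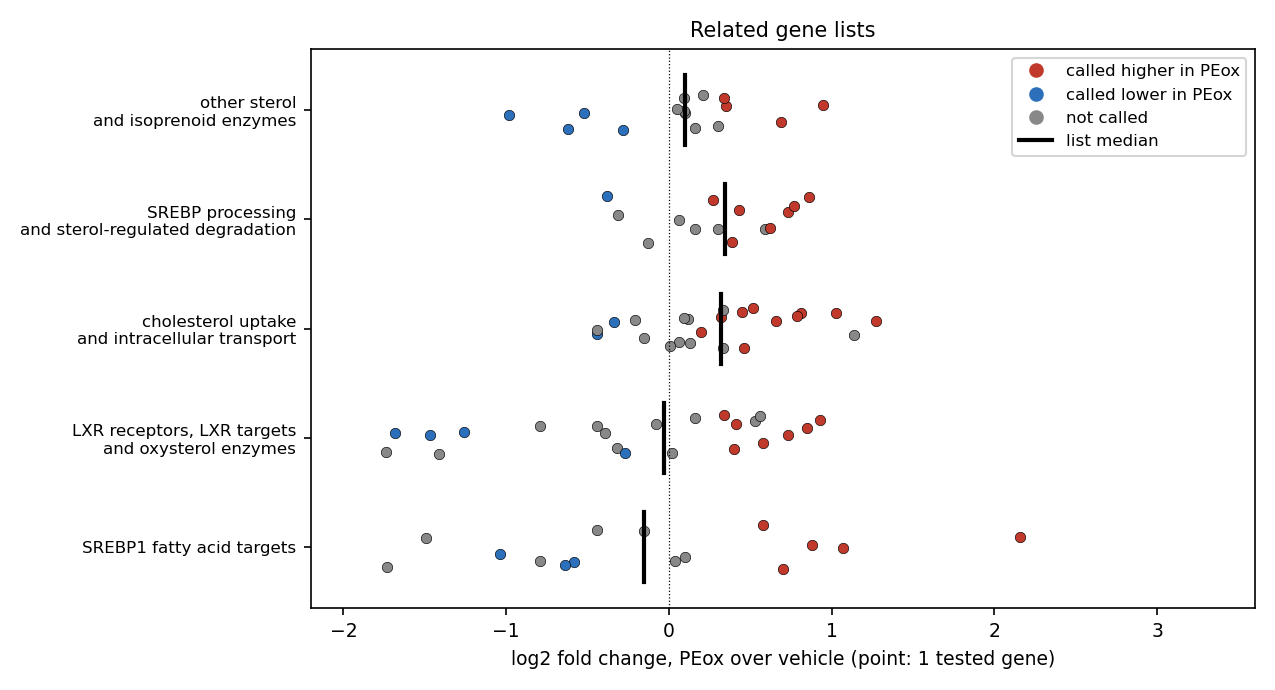
Fitted log2 fold change of PEox over vehicle for each tested gene of 5 related lists, coloured by the edgeR call, with vertical black bars at the list medians. Medians are 0.35 for SREBP processing and degradation, 0.32 for uptake and transport, 0.10 for other sterol and isoprenoid enzymes, -0.03 for LXR and oxysterol genes and -0.15 for fatty acid genes.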

How the data were processed

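RNA was sequenced from 3 PEox and 3 vehicle libraries, and groups were taken from the sample titles. Per the labels' protocols, fastp cleaned the reads and HISAT2 2.0.5 aligned them; edgeR 3.22.5 is listed among the tools in the submitters' processing notes. Read counter, build, annotation and strand: not given in the sources used here. Each deposited column holds the authors' raw counts of 1 library, not normalized. Symbols for 55141 of 55401 identifiers came from a table of gene names.

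Counts were tested in R 4.3.3 with edgeR 4.0.16 (filterByExpr, TMM factors between 0.951 and 1.05, robust quasi-likelihood test on group alone, Benjamini-Hochberg adjustment over 18253 genes, threshold 0.05), and SE is the log2 fold change over the root of F. Precision is limited by 3 libraries per group; the common biological coefficient of variation was 34.5%. CPM per kilobase used the longest protein-coding transcript of GENCODE M21, possibly not the annotation used for counting. Alternatives were other scalings and filters, replicate blocks, leaving out each library, DESeq2 1.42.0, limma-voom (limma 3.58.1) and loess removal of each library's trend with GC content and transcript length (span 0.5). The procedure was tested on simulated data that held few changed genes and a smaller spread than the common value above. Error rates at the setting of these libraries were therefore not checked. Any pair of libraries differed by more than sampling noise, so none was taken as a copy of another and each counted as 1 library. Such differences cannot show whether the libraries come from separate animals or cultures.

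The 29 members and all lists were chosen with earlier results of these data known. Values in every library are given for called members and for the member highest per kilobase in each role group; of each related list, up to 4 genes with the smallest p-values are named, besides a few fixed by name such as Nr1h2 and Nr1h3; some genes that the rule names are not reported here.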

Additional observations from a re-analysis of the deposited data

How the results depend on the processing

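Of the 13 calls, 9 kept sign and threshold in all 14 alternatives (Hmgcs1, Insig2, Scap, Soat1, Mvd, Fdps, Fdft1, Srebf2 and Stard4), and 7 of the 16 uncalled genes were called in none. DESeq2 and the stricter filter each called 12 members lower, 10 of them enzymes, and limma-voom 11, 9 of them enzymes. Without a low-count filter 8 members were lower, 6 of them enzymes. After length and GC correction 9 were lower, 6 of them enzymes. Each of these settings called 4 members higher. Library size scaling gave 7 members higher, among them 3 enzymes, and an enzyme median of -0.10; of all calls 61.9% were then higher (4411 higher, 2715 lower), against 49.3% with TMM (3337 and 3438). Leaving out each library gave 4 to 6 members higher and 5 to 11 lower, 1 to 2 enzymes higher and 3 to 9 lower, with 5 members and 3 enzymes lower without vehicle library 2 and 4 enzymes lower without PEox library 1, vehicle library 1 or vehicle library 3; the enzyme median ran from -0.24 to -0.20 and that of the other members from 0.07 to 0.22. Signs turned only for genes not called, except Tspo. With the length and GC trend removed Idi1 was -0.05, Insig1 -0.003, Mylip -0.03, Sc5d -0.10, Sqle -0.16, Srebf1 -0.06 and Tspo 0.01; with library size scaling Abca1 was 0.13 and Msmo1 0.02; Insig1 was -0.002 with the stricter filter and -0.01 without a filter. Leave-one-out values ran from -0.93 to 0.31 for Abca1, -0.07 to 0.11 for Acat2, -0.003 to 0.11 for Idi1, -0.17 to 0.20 for Insig1 and -0.08 to 0.14 for Mylip. The cause of these shifts was not tested. Abca1 had no value under the stricter filter of at least 5 CPM in 3 libraries. No pairing by replicate number was seen: deviations of same-numbered libraries correlated at 0.00541, 0.0135 and -0.00583. Those of differently numbered libraries correlated at -0.0157 to 0.0106. Such values cannot tell whether same-numbered libraries share an animal or preparation. With replicate blocks 9 members were lower and 4 higher, as without, and 6159 genes were called in all, against 6775. Abca1 had 126, 113 and 453 counts in PEox libraries 1 to 3. The coefficient of variation of its CPM was 82% in PEox and 31% in vehicle. Nr1h3 averaged 1.148 CPM in PEox and 1.435 CPM in vehicle. The part of sequencing depth in the results for these genes was not tested.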

Other observations

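SREBP1 targets of fatty acid synthesis split as well, with 5 of 15 tested genes higher and 3 lower, beside 18.3% and 18.8% of all tested genes (median -0.15, and 0.09 with the stricter filter). Me1, the malic enzyme that supplies NADPH, had 30.2, 21.0 and 32.6 CPM in PEox and 6.97, 4.30 and 7.46 CPM in vehicle (log2 fold change 2.16 ± 0.25, SE; edgeR adjusted p = 0.000288). Acly, which makes the acetyl-CoA that feeds both fatty acid and sterol synthesis, averaged 229 ± 21.1 CPM in PEox and 141 ± 10.1 in vehicle (SD, n = 3 each; log2 fold change 0.70, edgeR adjusted p = 0.000286). The desaturase gene Fads1 was higher at 1.07 (edgeR adjusted p = 0.000375) and the elongase gene Elovl6 lower at -0.64 (edgeR adjusted p = 0.00241).

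The cholesterol genes varied more among PEox than among vehicle libraries. Their coefficient of variation was larger in PEox for 20 of 29 genes, with medians of 9.25% in PEox and 6.55% in vehicle. This difference was not tested, and the share over all tested genes is not given here. Over all genes the PEox libraries also differed more from each other. The mean chi-square per gene between 2 libraries was 27.5 to 35.4 within PEox and 15.6 to 26.1 within vehicle. PEox library 3 held the highest PEox value for 16 of the 29 genes, among them Abca1, Abcg1 and Lss, and the lowest for 9, among them Mvk and Hsd17b7.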
